A study of Mus musculus with 6 samples.

Results

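The liver transcripts of 10 hepatocyte growth factor receptors and ligands were examined after postnatal loss of SPNS1, a lysosomal lysolipid transporter. The genes were taken by name from the count table of the study, in which all 10 were listed among 54532 genes. They were the receptors *Egfr*, *Erbb3*, *Met* and *Fgfr4*, the FGFR4 coreceptor *Klb*, the EGFR ligands *Areg*, *Ereg*, *Hbegf* and *Tgfa*, and the MET ligand *Hgf*. RNA-Seq covered 3 g*Spns1*-cKO and 3 control livers, 1 library per mouse, all on a C57BL/6 background according to the methods. The g*Spns1*-cKO mice were *Spns1* fl/fl animals with Rosa26Cre-ERT2, a ubiquitously expressed and tamoxifen-dependent Cre, so that deletion was not restricted to hepatocytes. Tamoxifen was injected on days around the end of the second postnatal week. The methods give *Spns1* fl/fl littermates as controls for this line, which then share the floxed allele, whereas the sample labels call the controls wild type. Whether control mice received tamoxifen, and the age at which these livers were collected, are not given in the sources used here.

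EGFR, MET and FGFR4 are receptor tyrosine kinases of hepatocytes. EGFR is activated by ligands that are made as membrane-bound precursors and released by shedding, and it pairs with ERBB3, which binds neuregulins and has little kinase activity of its own. MET has a single ligand, hepatocyte growth factor, which nonparenchymal cells of the liver secrete as an inactive precursor. FGFR4 needs the coreceptor β-Klotho, encoded by *Klb*, to respond to the gut hormone FGF15, which lowers bile acid synthesis in hepatocytes. EGFR and MET signal in part through the ERK pathway and are known for their roles in liver regeneration.

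The receptor genes *Egfr*, *Fgfr4* and *Met* were lower in g*Spns1*-cKO mice and the ligand genes *Hgf* and *Hbegf* were higher. *Egfr* had the largest decrease, 3.49-fold in mean CPM (read counts relative to the TMM-scaled size of each library), and *Hbegf* and *Hgf* rose 4.11-fold and 3.32-fold. Of the 10 genes, 9 had enough counts to be tested, and 2 passed an adjusted p of 0.05 as higher and 3 as lower. *Hbegf* reached the count filter in the g*Spns1*-cKO libraries but not in all controls, and such a filter favours genes that differ. Of the 8 members that reached the filter's cutoff in every library, 1 was higher and 3 were lower. Scaling by library size only gave 3 higher and 1 lower of the 9. *Erbb3*, *Klb*, *Tgfa* and *Ereg* did not pass, and *Areg* was not tested because of its low counts. Across the 15449 genes tested in the same fit, 41.8% passed this threshold, 21.3% as higher and 20.5% as lower. The 5 of 9 therefore stood in a data set where such changes were common, and nothing is read from the share. The groups of 3 libraries did not overlap for 5 of the 9 tested genes, compared with 54.1% of all genes tested. Two-sided exact permutation tests on single genes gave p = 0.1 wherever the groups did not overlap, which is the smallest p that 3 mice against 3 allow.

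**Figure D1:**
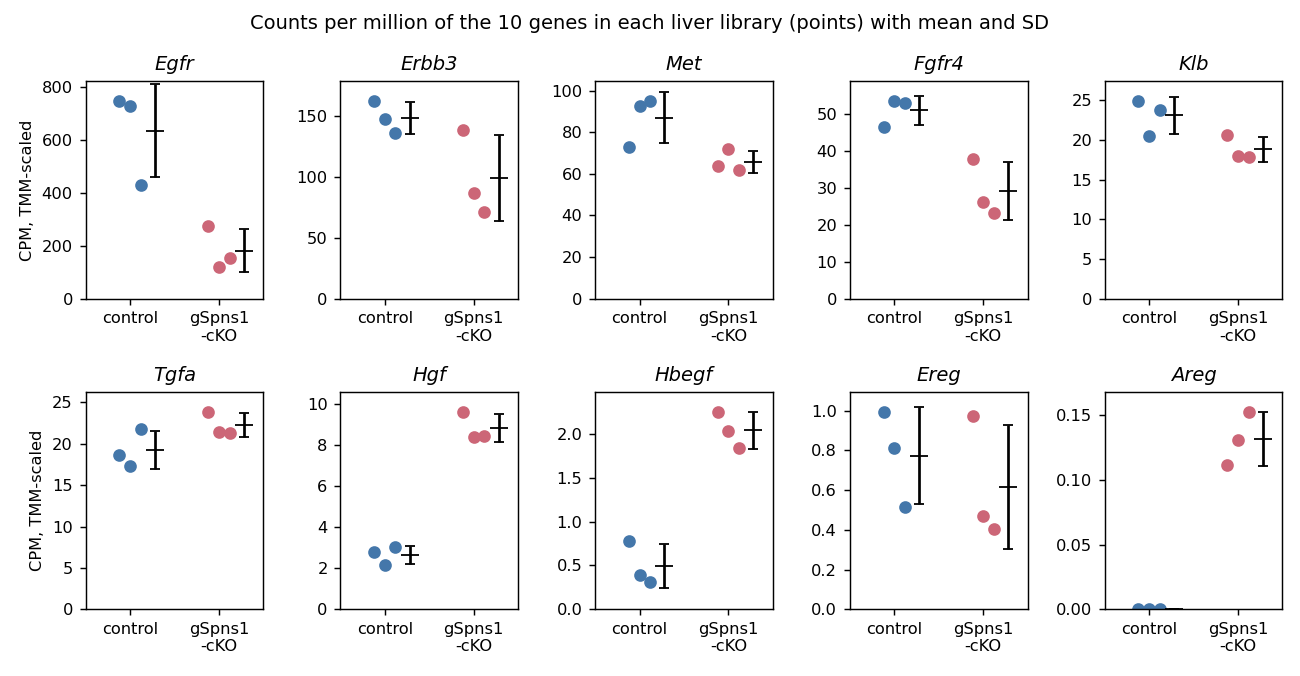
CPM after TMM scaling of the 10 genes in each of the 6 liver libraries (points, blue for control and red for g*Spns1*-cKO), with the mean and SD of each group in black and a separate axis from 0 for each gene. *Egfr*, *Met* and *Fgfr4* were lower in every g*Spns1*-cKO library than in every control library, *Hgf* and *Hbegf* were higher, and *Areg* had no count in the control libraries.

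The DNA upstream of 1 receptor and 2 ligand genes is shown to give the sequence at the starts of these genes. RefSeq entries (GRCm38.p6) were found for 7 of the 10 genes, not including *Erbb3*, *Ereg* and *Hbegf*. The 250 bases before the annotated start are printed for *Egfr*, which fell, and for *Hgf*, which rose, each on the plus strand. They are also printed for *Areg*, which was not tested and whose few reads were all in g*Spns1*-cKO libraries. *Hgf* has a pair of annotated starts, and the upstream one was used. The windows of *Met*, *Fgfr4* and *Klb* overlapped an annotated exon of the same gene and are not printed. Capitals mark matches to 7 motifs on either strand. The GC box was searched as GGGCGG and the TATA box as TATAAA. A full cAMP response element was searched as TGACGTCA. The CCAAT box was searched by the letters of its name, and the letters for a TEAD site were GGAATG. An AP-1 site was searched as TGANTCA, which does not match the longer response element. A STAT site was taken as TTCNNNGAA.
*Egfr*, chr11:16751953-16752202: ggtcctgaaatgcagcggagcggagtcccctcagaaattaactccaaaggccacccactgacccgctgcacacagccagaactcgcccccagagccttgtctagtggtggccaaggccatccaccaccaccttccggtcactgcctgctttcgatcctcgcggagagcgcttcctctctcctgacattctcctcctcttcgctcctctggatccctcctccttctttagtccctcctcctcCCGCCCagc
*Hgf*, chr5:16553245-16553494: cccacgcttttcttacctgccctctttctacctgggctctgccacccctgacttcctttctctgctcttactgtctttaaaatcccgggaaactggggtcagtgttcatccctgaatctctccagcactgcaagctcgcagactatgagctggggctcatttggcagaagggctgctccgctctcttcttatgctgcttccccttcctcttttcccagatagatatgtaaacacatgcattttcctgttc
*Areg*, chr5:91139349-91139598: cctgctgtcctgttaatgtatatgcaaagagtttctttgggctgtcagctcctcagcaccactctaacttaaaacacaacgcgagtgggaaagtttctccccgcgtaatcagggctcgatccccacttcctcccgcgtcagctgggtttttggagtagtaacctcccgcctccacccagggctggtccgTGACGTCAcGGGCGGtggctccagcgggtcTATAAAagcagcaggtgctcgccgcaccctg
The *Egfr* window held 1 GC box and no TATA box, and the *Hgf* window held none of the 7 motifs. The *Areg* window held a cAMP response element, a GC box and a TATA box. Among 32851 windows of the same length, 32.7% held a GC box, 12.4% a TATA box and 1.55% a cAMP response element. These matches describe letters in the windows and not binding.

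*Egfr* (ENSMUSG00000020122, GRCm38 chromosome 11, 16752203 to 16918158, plus strand) encodes the receptor for EGF, TGF-α and related ligands. It had 747, 727 and 431 CPM in controls and 274, 118 and 153 CPM in g*Spns1*-cKO mice. All g*Spns1*-cKO libraries were below all control libraries, although control replicate 3 was well below the other controls and g*Spns1*-cKO replicate 1 was well above the other g*Spns1*-cKO libraries. The mean was 635 ± 177 CPM in controls and 182 ± 82.0 in g*Spns1*-cKO mice (SD, n = 3 each), a log2 fold change of -1.80 (SE 0.37, adjusted p = 0.00866). This and the other adjusted p-values are from the edgeR quasi-likelihood fit and are adjusted by Benjamini-Hochberg. Of all genes tested, 2.22% had as large a decrease. Leaving out g*Spns1*-cKO replicate 1 gave -2.23, and *Egfr* passed the threshold in all 14 alternative analyses. *Egfros*, an RNA gene on the opposite strand within *Egfr*, held 14 counts over the 6 libraries compared with 74710 for *Egfr*.

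*Erbb3* (ENSMUSG00000018166, chromosome 10, 128567523 to 128589652, minus strand), the partner receptor, had 163, 147 and 136 CPM in controls and 139, 87.2 and 71.2 CPM in g*Spns1*-cKO mice. The groups overlapped, because g*Spns1*-cKO replicate 1 was above the lowest control. The log2 fold change was -0.59 (SE 0.23, edgeR adjusted p = 0.0714), which did not pass. Without g*Spns1*-cKO replicate 1 it was -0.91 with an adjusted p of 0.000454. With all 6 libraries it passed under DESeq2, limma-voom, the loosest count filter and the replicate block, with adjusted p-values of 0.0210, 0.0412, 9.18e-05 and 0.0119.

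*Met* (ENSMUSG00000009376, chromosome 6, 17463800 to 17573980, plus strand), the HGF receptor, had 73.0, 92.8 and 95.1 CPM in control livers. In g*Spns1*-cKO mice it had 63.7, 71.7 and 61.7 CPM. The groups came close, with the lowest control only just above the highest g*Spns1*-cKO library. The log2 fold change was -0.40 (SE 0.13, edgeR adjusted p = 0.0261), a smaller decrease than that of *Egfr*. The call was lost when control replicate 2, control replicate 3 or g*Spns1*-cKO replicate 3 was left out (adjusted p = 0.0820, 0.0943 and 0.103 in the same edgeR test). With scaling by library size only, the direction turned to 0.041 (adjusted p = 0.797), so the direction of *Met* depends on the scaling.

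*Fgfr4* (ENSMUSG00000005320, chromosome 13, 55152640 to 55168759, plus strand), the FGF15 receptor, had 46.5, 53.6 and 53.0 CPM in control livers. It had 37.9, 26.2 and 23.3 CPM in g*Spns1*-cKO mice, all below the controls, with g*Spns1*-cKO replicate 1 nearest to them. The log2 fold change was -0.81 (SE 0.17, edgeR adjusted p = 0.00464). Scaling by library size only kept the direction but ended the call, at -0.37 (adjusted p = 0.0889).

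*Klb* (ENSMUSG00000029195, chromosome 5, 65348314 to 65384007, plus strand), which encodes the coreceptor, varied less. It had 24.9, 20.5 and 23.8 CPM in controls and 20.6, 18.0 and 17.8 CPM in g*Spns1*-cKO mice, and the groups overlapped slightly. The log2 fold change of -0.29 (SE 0.12) did not pass (edgeR adjusted p = 0.0731). It passed without control replicate 2 or without g*Spns1*-cKO replicate 1 (adjusted p = 0.0411 and 0.0431), and with library size only its direction turned to 0.15 without passing.

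*Hgf* (ENSMUSG00000028864, chromosome 5, 16553495 to 16620152, plus strand), the MET ligand, was low in control livers at 2.77, 2.18 and 3.04 CPM. In g*Spns1*-cKO mice it had 9.65, 8.42 and 8.45 CPM. The values within each group were close together and the groups were far apart. The mean rose from 2.66 ± 0.444 to 8.84 ± 0.701 CPM (SD, n = 3 each), a log2 fold change of 1.73 (SE 0.19, edgeR adjusted p = 8.94e-05). This call held in all 14 alternatives. The marker genes of stellate cells and fibroblasts, a known source of HGF, moved with it. Of 7 such markers 5 were higher and none lower (median log2 fold change 1.22), and their summed level was 176 to 206 CPM in control and 460 to 529 CPM in g*Spns1*-cKO mice. Of 6 endothelial markers, 4 were higher and none lower, with summed levels of 128 to 143 and 184 to 223 CPM. Every gene of these 2 lists had counts in all 6 libraries. The part of these cells in the rise of *Hgf* was not tested, and in whole liver more cells of a type and more RNA per cell cannot be told apart.

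*Hbegf* (ENSMUSG00000024486), which encodes heparin-binding EGF-like growth factor, had 22, 12 and 8 counts in controls and 81, 78 and 72 in g*Spns1*-cKO mice. All g*Spns1*-cKO libraries were above all controls. Scaled, the means were 0.496 ± 0.251 and 2.04 ± 0.210 CPM (SD, n = 3 each), a log2 fold change of 2.03 (SE 0.38, edgeR adjusted p = 0.00197). Only 2 of the control libraries reached the cutoff of the count filter, so the p-value is no independent support for the increase. Macrophage markers moved with it, and so did markers of other cell types. All 7 macrophage markers were higher (median log2 fold change 2.14), compared with 21.3% of all genes tested. Their summed level was 169 to 273 CPM in control and 639 to 942 CPM in g*Spns1*-cKO mice, and each had counts in all 6 libraries. Of the markers that reached the filter's cutoff in every library, 5 of 6 cholangiocyte, 5 of 7 stellate cell and fibroblast and 3 of 3 neutrophil markers were higher. Of 6 hepatocyte markers, 3 were lower and none higher. The part of these cell types in the rise of *Hbegf* was not tested.

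*Tgfa* (ENSMUSG00000029999, chromosome 6, 86195223 to 86275719, plus strand), which encodes TGF-α, was the most abundant EGFR ligand gene of the 4. It had 18.7, 17.3 and 21.8 CPM in controls and 23.9, 21.5 and 21.3 CPM in g*Spns1*-cKO mice, with overlap between the groups. The log2 fold change of 0.21 (SE 0.12) did not pass (edgeR adjusted p = 0.195). It passed as higher with upper-quartile scaling and with library size only, at 0.34 and 0.66.

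*Ereg* (ENSMUSG00000029377, chromosome 5, 91074622 to 91093646, plus strand), which encodes epiregulin, had few reads, with 28, 25 and 13 counts in controls and 35, 18 and 16 in g*Spns1*-cKO mice. The groups overlapped and the log2 fold change of -0.34 (SE 0.46, edgeR adjusted p = 0.581) was smaller than its error. *Gm19610*, on the opposite strand of *Ereg*, held 19 counts over the 6 libraries, and the strand setting of the counting is not given.

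*Areg* (ENSMUSG00000029378, chromosome 5, 91139599 to 91148432, plus strand), which encodes amphiregulin and lies beside *Ereg*, had no count in any control liver. It had 4, 5 and 6 counts in the g*Spns1*-cKO mice. A count of 0 allows a level of up to 3 counts, which is 0.0974 to 0.119 CPM in the control libraries. The g*Spns1*-cKO mean of 0.131 CPM was 1.22-fold the mean of these limits. The counting error of the 4, 5 and 6 counts is not included, so this is not a lower bound on the difference. The lowest g*Spns1*-cKO library, at 0.111 CPM, lay within the range of the control limits. These limits cover the counting error of the controls only. The default filter left *Areg* out of the test.

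**Figure D2:**
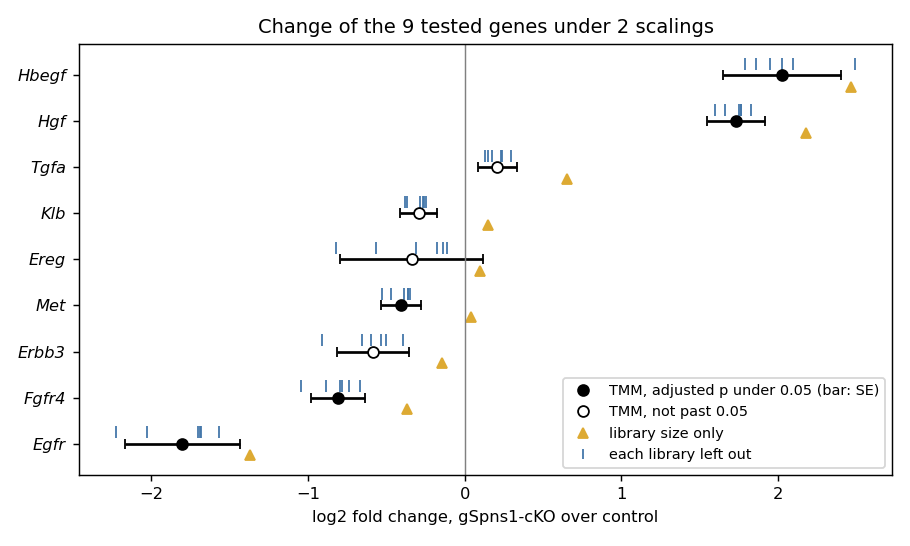
Log2 fold change of g*Spns1*-cKO over control livers for the 9 tested genes (circles with SE bars, filled where the adjusted p was under 0.05). Triangles give the value with scaling by library size only and ticks the values with each library left out, and *Met*, *Klb* and *Ereg* lie on opposite sides of 0 under the 2 scalings.

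Levels of different genes were compared in the deposited FPKM values, which relate the counts to gene length and to a scaled library size. Between libraries they moved like the TMM-scaled CPM and not like counts over the total counts of a library. In control livers the order was *Egfr* (55.6 ± 15.3 FPKM), *Erbb3* (24.5 ± 1.99), *Fgfr4* (14.3 ± 1.23), *Met* (11.2 ± 1.66), *Klb* (5.03 ± 0.471) and *Tgfa* (2.94 ± 0.358; SD, n = 3). *Hgf*, *Hbegf* and *Ereg* followed at 0.368 ± 0.0608, 0.207 ± 0.103 and 0.186 ± 0.0572 FPKM, the last 2 within each other's spread. In g*Spns1*-cKO mice *Erbb3* (16.2 ± 5.81 FPKM) and *Egfr* (15.9 ± 7.17) were no longer apart, and neither were *Met* (8.43 ± 0.652) and *Fgfr4* (8.11 ± 2.17). *Klb* and *Tgfa* were at 4.08 ± 0.344 and 3.38 ± 0.225 FPKM. *Hgf* stood at 1.21 ± 0.0980 and *Hbegf* at 0.847 ± 0.0871 FPKM, well above *Ereg* (0.147 ± 0.0744) and *Areg* (0.107 ± 0.0170). *Tgfa* made up between 83.4% and 92.9% of the summed FPKM of the 4 EGFR ligand genes in controls. In g*Spns1*-cKO mice its share was between 74.3% and 76.7%. This share depends on *Hbegf* and *Areg*, whose control counts were low or absent. *Btc*, a further EGFR ligand gene outside these 4, had 0.445 ± 0.0915 FPKM in controls and 0.923 ± 0.220 in g*Spns1*-cKO mice (SD, n = 3).

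Ratios between genes of 1 library do not depend on how libraries are scaled. The ratio of *Egfr* to *Erbb3* in FPKM was 2.44, 2.62 and 1.68 in controls and 1.05, 0.721 and 1.14 in g*Spns1*-cKO mice. Each control library had clearly more *Egfr* than *Erbb3*, and the g*Spns1*-cKO libraries had similar amounts. The ratio of *Egfr* to *Met* was 6.94, 5.31 and 3.07 in controls and 2.92, 1.12 and 1.68 in g*Spns1*-cKO mice, so that control replicate 3 came close to g*Spns1*-cKO replicate 1. The ligand to receptor ratio of *Hgf* to *Met* rose from 0.0333 ± 0.00782 to 0.145 ± 0.0183 (SD, n = 3), and the groups were far apart. The ratio of *Fgfr4* to *Klb* was 2.39, 3.35 and 2.86 in controls and 2.36, 1.87 and 1.67 in g*Spns1*-cKO mice. Its groups nearly touched. None of these 4 ratios overlapped between groups (two-sided exact permutation test, p = 0.1 for each, the smallest possible; adjusted over the 6 such values computed also 0.1).

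**Figure D3:**
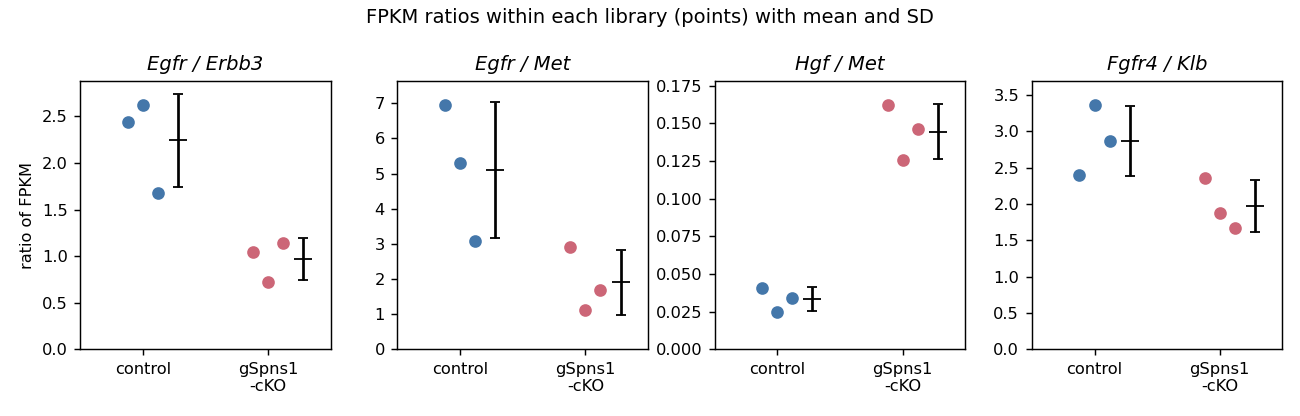
Ratio of deposited FPKM values between pairs of genes within each liver library (points, blue for control and red for g*Spns1*-cKO), with the mean and SD of each group in black and axes from 0. *Egfr* relative to *Erbb3* and to *Met* was lower in all 3 g*Spns1*-cKO libraries, *Hgf* relative to *Met* was higher, and for *Fgfr4* relative to *Klb* the nearest libraries of the groups had 2.39 and 2.36.

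The pattern of *Egfr* over the 6 libraries was compared with 12916 genes of at least 1 CPM on average, by the root-mean-square difference of centred log2 values. The nearest were *Ccnf*, *Csad* and *Hes6*, at 0.13, 0.19 and 0.20. For *Met* they were *Tor2a*, *2410004B18Rik* and *Ing1* (0.029, 0.040 and 0.047), and for *Fgfr4* they were *B3gat3*, *Cebpe* and *Cox18* (0.028, 0.066 and 0.067). With so many genes and 6 libraries, close matches are common.

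Genes around these receptors were followed in 8 lists of 94 genes, 85 of which were tested. Of these, 35 were higher (41.2%) and 16 lower (18.8%), compared with the 21.3% and 20.5% of all genes tested. The lists were chosen with earlier results known, and nothing is read from these shares. Of the 85 genes, 6 reached the filter's cutoff in every g*Spns1*-cKO library but not in every control, and 4 of these were among the higher genes (*Nrg1*, *Spint1*, *Etv4* and *Fosb*), so that their tests are no independent support for their increase. Among the 79 that reached it in every library, 31 were higher and 16 lower. Among the other EGF family and ERBB genes, 2 of 6 tested were higher and none lower, and with scaling by library size only 4 were higher. *Nrg1*, which encodes a neuregulin ligand of ERBB3 and ERBB4, had 12, 7 and 8 counts in controls and 102, 190 and 157 in g*Spns1*-cKO mice. Every g*Spns1*-cKO library was thus far above the controls, of which 1 reached the filter's cutoff, and the fitted log2 fold change was 3.60 (SE 0.35, edgeR adjusted p = 5.16e-05). *Btc*, which encodes the EGFR ligand betacellulin, rose from 2.03 ± 0.424 to 4.23 ± 1.00 CPM (log2 fold change 1.05, edgeR adjusted p = 0.00859). *Egf*, *Erbb2*, *Erbb4* and *Nrg4* did not pass, with log2 fold changes of 1.11, 0.72, -0.31 and 0.018.

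Among 7 genes of ligand shedding, 3 were higher (42.9%, compared with 21.3% of all genes tested) and none lower. The 3 were *Rhbdf2* and *Rhbdf1*, which encode iRhom partners of the sheddase ADAM17, and *Adam10*, a sheddase gene. Their log2 fold changes were 0.84, 0.65 and 0.49. *Adam17* itself had 0.31 and did not pass (edgeR adjusted p = 0.0926). With scaling by library size only, 6 of the 7 were higher. Of 16 adaptors and brakes, 4 were higher (*Gab2*, *Socs5*, *Cbl* and *Lrig2*) and 3 lower (*Errfi1*, *Gab1* and *Plcg1*). These were 25% and 18.8% of the list, near the 21.3% and 20.5% of all genes tested. With scaling by library size only, 9 were higher and none lower, and the 3 that fell had -0.28, -0.21 and -0.13 without passing. *Errfi1*, an inhibitor of EGFR, was abundant and fell from 1590 ± 113 to 962 ± 207 CPM (SD, n = 3, log2 fold change -0.73, edgeR adjusted p = 0.00931). *Cbl*, a ubiquitin ligase that acts on EGFR and MET, had a log2 fold change of 0.74.

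In the list of HGF activation and MET partners, 7 of 13 genes were higher (53.8%) and 3 lower (23.1%), compared with 21.3% and 20.5% of all genes tested. The median log2 fold change was 1.14, compared with 0.014 for all genes tested. Scaling by library size only gave 10 higher and 2 lower of the 13. Of the 12 that reached the filter's cutoff in every library, 6 were higher and 3 lower. The genes that fell included the protease genes *Hgfac*, an activator of pro-HGF, and *Hpn*, which encodes hepsin. *Hgfac* fell from 8497, 8921 and 7504 counts in controls to 6029, 4962 and 6464 (log2 fold change -0.95), and *Hpn* had -1.08. *Spint2*, an inhibitor of such proteases, had -0.69, and with scaling by library size only it had -0.25 and did not pass (edgeR adjusted p = 0.183). *Spint1*, another inhibitor, and *St14*, the gene of matriptase, rose by 3.57 and 2.74 on the log2 scale. *Spint1* had 7, 5 and 3 counts in controls and 70, 115 and 59 in g*Spns1*-cKO mice, and no control library reached the filter's cutoff. *Plaur* and *Plat*, of the plasminogen activator system, rose by 2.23 and 2.12. Cholangiocyte markers moved with the genes of this list that rose, as did the macrophage, stellate cell and endothelial markers given above. Of 7 cholangiocyte markers, 6 were higher, with a median log2 fold change of 2.13, and each had counts in all 6 libraries. No control library reached the filter's cutoff for *Cftr*, so its test is no independent support for its increase. Of the 6 that reached the cutoff in every library, 5 were higher. The summed level of the 7 was 59.4 to 77.8 CPM in control and 186 to 300 CPM in g*Spns1*-cKO mice. The part of these cell types in the changes was not tested.

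Of the FGF genes, 9 of 14 could be tested, with 2 higher and 2 lower. Each was 22.2% of the 9, near the 21.3% and 20.5% of all genes tested. *Fgf15* had no count in any library, and *Fgf21*, a hepatokine that signals through β-Klotho with other FGF receptors, fell from 4.23 ± 1.83 to 1.74 ± 0.138 CPM (log2 fold change -1.28, edgeR adjusted p = 0.00774). *Fgfrl1* had -0.77, *Fgfr2* 0.58 and *Fgf2* 1.11. Scaled by library size only, *Fgfrl1* had -0.33 and did not pass (edgeR adjusted p = 0.0615), and the list had 4 higher and 1 lower. *Fgf2* shares its locus with *Nudt6* on the opposite strand, which had a similar number of counts, and the annotated span of *Fgfr2* covers many other genes, so reads of these genes are less certain. The 5 genes of bile acid synthesis and its repression all passed, 1 as higher (20%) and 4 as lower (80%). Of all genes tested, 21.3% passed as higher and 20.5% as lower. *Cyp7a1* and *Cyp8b1*, which FGFR4 signaling is known to repress, were lower, with log2 fold changes of -0.82 and -1.72. With scaling by library size only *Cyp7a1* had -0.37 and did not pass (edgeR adjusted p = 0.0948). *Cyp7b1* fell furthest, from 390 ± 24.9 to 19.0 ± 3.05 CPM (log2 fold change -4.36, edgeR adjusted p = 1.29e-07). *Nr0b2*, which encodes the repressor SHP, rose by 1.20 and *Cyp27a1* had -1.01.

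In the ERK pathway core, 2 of 10 genes were higher (20.0%, near the 21.3% of all genes) and 4 lower (40.0%, compared with 20.5%). *Map2k2*, *Hras*, *Map2k1* and *Araf* were the 4 that fell, with log2 fold changes of -0.79, -0.70, -0.49 and -0.36. With scaling by library size only, 6 were higher and none lower, and *Araf* turned to 0.084 without passing. Among 20 genes known to follow ERK signaling, 19 were tested, 14 were higher and none lower, with a median of 1.35. Under DESeq2, 14 were higher and 1 was lower. *Ccnd1*, which encodes cyclin D1, had 398, 335 and 194 counts in controls and 3302, 1859 and 3157 in g*Spns1*-cKO mice. Its log2 fold change was 2.75 (SE 0.32, edgeR adjusted p = 0.00119). *LTO1* overlaps it on the opposite strand and held 2379 counts over the 6 libraries, compared with 9245 for *Ccnd1*. The strand setting of the counting is not given, so reads of *Ccnd1* are less certain. *Fos*, *Etv4* and *Fosb*, which encode transcription factors, rose by 2.61, 2.33 and 2.13, although no control library reached the filter's cutoff for *Etv4* and 2 did for *Fosb*. Without these last genes, 12 of 17 were higher. The feedback genes *Dusp4*, *Dusp5*, *Dusp6*, *Spred1*, *Spred2* and *Spry1* were also higher, by between 0.81 and 1.66. *Egr1*, *Junb*, *Spry2*, *Spry4* and *Phlda1* did not pass, and *Phlda1* had the opposite sign (-1.99, edgeR adjusted p = 0.0520). The genes of this list are known to respond to other signals too. The macrophage, stellate cell and cholangiocyte markers given above were higher in the same libraries, and their part in these increases was not tested.

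**Figure D4:**
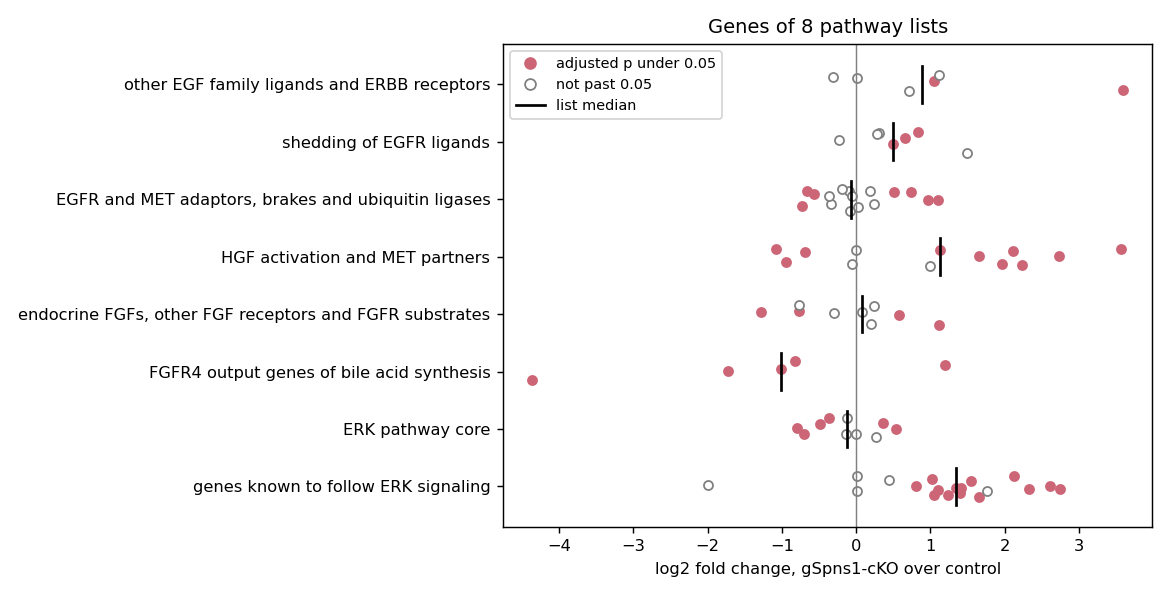
Log2 fold change of g*Spns1*-cKO over control livers for the tested genes of 8 pathway lists (filled where the adjusted p was under 0.05, open where not), with the median of each list as a black bar. The genes known to follow ERK signaling lie mostly to the right, 14 of 19 higher, and 4 of the 5 bile acid genes lie to the left.

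The libraries held between 30350002 and 35295611 counts. *Spns1*, the targeted gene, had 35.9, 50.7 and 34.6 CPM in control and 17.8, 30.6 and 17.8 CPM in g*Spns1*-cKO mice (log2 fold change -0.87, edgeR adjusted p = 0.0300). All counts of a gene are summed, so that the deleted exon could not be seen. Reads of the Y-linked genes *Ddx3y*, *Eif2s3y*, *Kdm5d* and *Uty* were found in all 6 libraries, and *Xist* had at most 5 counts in any. Of 6 hepatocyte markers 3 were lower and none higher (median -0.60), with summed levels of 92839 to 106347 CPM in control and 55682 to 64698 CPM in g*Spns1*-cKO mice, which moved in the same direction as the receptor genes. *Alb* made up most of this sum, and without it the levels were 25866 to 29531 CPM in control and 18250 to 21572 CPM in g*Spns1*-cKO mice. *Cps1* went the other way without overlap (log2 fold change 0.36), which did not pass in this fit, and passed as higher under DESeq2, upper-quartile and library-size scaling. With library size only, 1 marker was higher and 1 lower, with a median of -0.15. Their part in the decreases was not tested. Of 5 neutrophil markers 4 were tested and all 4 were higher, and of 6 lymphocyte markers 1 was higher and none lower. The neutrophil marker *Retnlg* and *Nkg7*, the lymphocyte marker that was higher, did not reach the filter's cutoff in every control. Their tests are no independent support for their increase. Of those that reached the cutoff in every library, 3 of 3 neutrophil and 0 of 2 lymphocyte markers were higher. Summed levels were 3.09 to 5.10 and 2.25 to 3.45 CPM in controls and 9.62 to 15.3 and 4.25 to 4.98 CPM in g*Spns1*-cKO mice. TMM factors were 0.834 to 0.873 in controls and 1.16 to 1.18 in g*Spns1*-cKO mice, so the scaling matters for small changes. Scaling by library size only shifted the all-gene median log2 fold change from 0.014 to 0.46 and the calls from 3286 higher and 3166 lower to 7289 and 970. Upper-quartile scaling gave 4111 and 2240.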

How the data were processed

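Liver RNA was sequenced by a commercial service, and per the labels the reads were filtered with fastp, aligned to mm10 with HISAT2 2.0.5 and counted with featureCounts 1.5.0-p3. The authors deposited 1 table with raw counts per gene, FPKM values of the same libraries, gene lengths, and group means (a normalized signal), log2 fold changes and p-values of their own comparison, which were not used. The strand setting is not given in the sources used here, so reads of overlapping genes on opposite strands cannot be told apart.

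Samples were grouped by their labels. The tests were run on the raw counts with edgeR 4.0.16 (R 4.3.3), after genes were kept by filterByExpr (15449) and libraries scaled by TMM. Groups were compared by the quasi-likelihood test (robust, no covariate) with Benjamini-Hochberg adjustment over all genes tested and a threshold of 0.05. SE is the log2 fold change over the square root of F. Exact permutation tests used log2(CPM + 0.5), or log2 of a ratio. The floor is 3 counts. The labels do not say that the libraries came from separate litters, and p-values measure the spread between these mice.

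The members and gene lists were chosen with earlier results of these data known. Named genes are the 10 members, *Spns1*, and up to 4 of each list with the largest change that passed without overlap; other names complete small counts and were chosen after their values were seen. The values of some list genes are not reported here. DESeq2 1.42.0, limma-voom (limma 3.58.1), other scalings and filters, a replicate block, a fit that was not robust and leaving out each library were alternatives. Positions are those of the table; 98.3% of its genes have the same coordinates in GENCODE M21.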

Additional observations from a re-analysis of the deposited data

How the results depend on the processing

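With scaling by library size only, 7289 genes were higher and 970 lower, the pathway lists had 54 higher and 6 lower, 1 member was lower, and *Fgfr4* (-0.37) no longer passed. Under the same scaling *Met* (0.041), *Klb* (0.15) and *Ereg* (0.096) turned direction without passing and *Tgfa* passed at 0.66. Upper-quartile scaling gave *Met* -0.27, which did not pass, and *Tgfa* 0.34, which did. *Erbb3* passed under DESeq2 (-0.59), limma-voom (-0.64) and with every gene of at least 1 count (-0.59). With at least 10 counts in every library 1 member was higher, because *Hbegf* was left out by that filter and gave no value. *Egfr*, *Hgf* and *Hbegf* kept their direction and call under every alternative that gave a value. The ranges were -2.23 to -1.37, 1.60 to 2.18 and 1.79 to 2.49. For *Hbegf*, which reached the filter's cutoff in only 2 controls, the repeated call is no independent support for its increase.

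With each library left out in turn, between 2 and 5 members were lower, *Erbb3* was between -0.91 and -0.40, *Klb* between -0.38 and -0.25, and *Met* between -0.53 and -0.35. The 5 were found without g*Spns1*-cKO replicate 1, and 2 without control replicate 3 or g*Spns1*-cKO replicate 3.

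The replicate numbers of the labels were not seen to pair the samples. The deviations of same-numbered libraries from their group means correlated at 0.042, 0.032 and -0.027, and not every library was closest to its own number. With 3 libraries per group this cannot exclude pairing, and the methods name littermates as controls. With the number as a replicate block, 3084 genes were higher and 3016 lower, and *Erbb3* (-0.64) passed; it changed no other member's call. Low counts limit *Areg*, *Hbegf* and *Ereg*, for which counting error is large.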

Other observations

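Among the 3 g*Spns1*-cKO mice, replicate 1 had the highest level of 8 of the 9 tested members, with *Met* as the exception. For *Hgf*, *Hbegf* and *Tgfa* this put it farthest from the controls. The share of all genes with replicate 1 as the highest is not given, so nothing is read from the 8 of 9. The CPM of replicate 1 were nearest to the control mean for 5 of the 9 tested members. Over the 6452 genes that passed in either direction it was the nearest of the 3 for 47.7%, compared with 34.1% and 18.2% for replicates 2 and 3. The major urinary protein genes, which are among the most abundant transcripts of male mouse liver, took 0.0905% of its counts, compared with 0.0038% and 0.0051% in replicates 2 and 3 and 1.70% to 2.44% in control livers.

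The EGFR ligand genes differed in their share of change. The summed FPKM of *Areg*, *Ereg*, *Hbegf* and *Tgfa* was 3.39, 3.01 and 3.60 in controls and 4.90, 4.31 and 4.23 in g*Spns1*-cKO mice. The groups did not overlap (p = 0.1 by the exact permutation test, its lowest possible value). Of all genes tested singly, 54.1% did not overlap either. The sum includes *Hbegf*, which reached the filter's cutoff in only 2 controls, and *Areg*, which had no count in controls. The separation is therefore no independent support for an increase, and *Tgfa*, the largest part, overlapped between the groups. *Btc*, another EGFR ligand gene, is not in the sum. Unlike a ratio within a library, this sum depends on the scaling of the FPKM values. *Egfr* itself was lower in the same libraries.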
